A study of Mus musculus and Homo sapiens with 10 samples.

Results

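The subject is the gene programme of mouse embryonic stem (ES) cells carrying a short hairpin against Gm6871, set against the same cells with an empty hairpin vector. The members are the genes of the mouse RefSeq expression table whose mean over the 4 libraries was at least 0.5 RPKM, that is reads per kilobase of the entry scaled to the library total. This left 11658 of 30619 genes, where an entry with no gene symbol counts as a gene of its own. Both groups were cells of the ES3 line, of strain C57BL/6, taken 4 days after infection with a lentiviral (LV) vector. One group, called the controls, received sh-empty, and the other, called the knockdown, sh-Gm6871, and each was sequenced as 2 libraries of cytoplasmic, DNase-treated, polyadenylated RNA. The labels do not say whether the libraries of a group came from separate cultures, so the spread behind the p-values may be technical.

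Gm6871 belongs to the KRAB zinc finger proteins, which bind DNA through arrays of zinc fingers and recruit the corepressor KAP1 (Trim28). KAP1 in turn gathers enzymes that place repressive histone H3 lysine 9 methylation, and in ES cells this system is best known for silencing retrotransposons. ES cells hold a pluripotent state through Oct4 (Pou5f1), Sox2 and Nanog, and genes of the naive and primed states mark earlier and later steps of development. The study asked how such proteins keep L1 retrotransposons silent, and the gene table shows what else differed between the groups. Of the 2 reference transcripts of Gm6871, 0 matched an entry of the table, so the knockdown itself was not checked here.

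The libraries held between 37198636 and 66050821 reads, with sh-empty library 1 the smallest. Pou5f1 stood at 946 and 1175 RPKM with sh-empty and 960.1 and 888 RPKM with sh-Gm6871. Sox2 stood at 265 and 257 RPKM with sh-empty and 240.4 and 300.2 RPKM with sh-Gm6871. Nanog stood at 175 and 179 RPKM with sh-empty and 194 and 168 RPKM with sh-Gm6871. These defining ES cell genes were high in every library, and their groups overlapped. Esrrb, another ES cell gene, read only 0.0135 to 0.0499 RPKM in its higher entry and fell below the level filter. It had 2 RefSeq entries, and genes with several entries read low in this table in general: the median of the highest entry was 0.67 RPKM for 18903 genes with 1 entry, 0.224 RPKM for 2386 genes with 2 and 0.123 RPKM for 1135 genes with 3 or more. How reads were shared among entries is not stated in the sources at hand, so levels of such genes were compared only between libraries. Among markers of other cells, the summed level of 25 feeder fibroblast genes was 451 and 455 RPKM with sh-empty and 440 and 293 RPKM with sh-Gm6871, with none of them at 0 in all libraries. Of the 25, 10 were below the level filter, among them Postn (0 to 0.048 RPKM) and Pdgfrb (0 to 0.030 RPKM). The sum therefore gives no share of fibroblasts. Col1a1, a collagen that defines fibroblasts, stood at 9.03 and 0.374 RPKM with sh-empty and 9.45 and 0.453 RPKM with sh-Gm6871, so it followed the library number, and the summed level was lowest in knockdown 2. The part of such cells in the matrix and adhesion genes below (Itgb1, Igfbp3, Sparc) was not tested. The haematopoietic list summed to 2.57 to 3.16 RPKM over 16 genes, with Ptprc, Runx1 and Tyrobp listed at 0. Myc, Uhrf1, Vegfa and Atp5g2, which ES cells are known to use, were also listed at 0 in all 4 libraries, and Ptprc and Runx1 have 2 and 4 RefSeq entries, so a listed 0 does not show absence.

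Differences between the groups were no larger than differences inside them. On the log2(RPKM + 0.5) scale, which understates the change of low genes, the group means differed by a median absolute value of 0.17 over the 11658 genes. The 2 control libraries differed from each other by a median of 0.26, and the 2 knockdown libraries by 0.25. A log2 difference beyond 1 between the group means was seen for 92 genes, 59 of them higher in the knockdown (0.506%) and 33 lower (0.283%), and 37 of the 92 had a mean below 5 RPKM. A difference of means of 2 is smaller by averaging alone than one of single libraries, so these sizes are set side by side only as a description. Inside the groups, 846 genes (7.26%) differed by that much between the controls and 542 (4.65%) between the knockdown libraries.

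The libraries did not sort by hairpin. Across genes, sh-empty 1 and sh-Gm6871 1 were the most alike, with r = 0.992 of the log2 levels, against 0.969 for the 2 controls and 0.974 for the 2 knockdown libraries. Accordingly the library numbered 1 of the knockdown differed from control 1 by a median of 0.15, with 87 genes beyond 1, whereas knockdown 2 differed from control 2 by 0.30, with 746 genes beyond 1. Both differences had the same sign for 5526 genes (47.4%), and their correlation across genes was -0.060. Genes are not independent replicates, and these values describe the 4 libraries only.

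**Figure D1:**
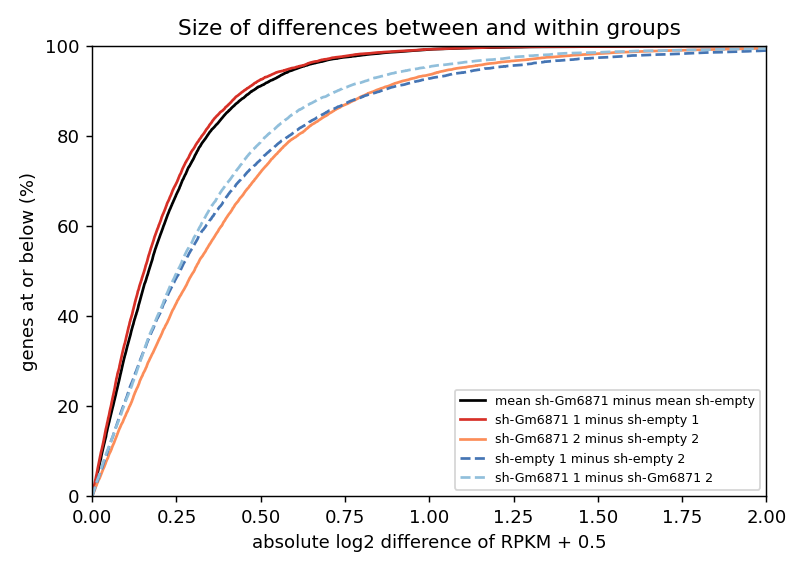
Share of genes (y axis, percent of 11658) at or below an absolute log2 difference of RPKM + 0.5 (x axis) for the group means, for each numbered knockdown minus control difference and for the differences inside the groups. The curves for the group means (median 0.17) and for the first numbered difference (0.15) lie to the left, and those inside the groups (0.26 and 0.25) lie nearer to the second numbered difference (0.30).

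With limma, 0 of 11658 genes passed an adjusted p of 0.05 (0%), 223 had an unadjusted p under 0.05 (1.91%), and the lowest adjusted p was 0.997. Voom on reads worked out from the RPKM values also called 0, with 250 genes at an unadjusted p under 0.05. An exact permutation test of 2 libraries against 2 cannot go below p = 0.333. The 95% confidence interval, taken gene by gene, lay wholly within -1 and 1 for 8384 genes (71.9%). It did so for 4983 of the 5771 genes with a mean of at least 10 RPKM (86.3%). These intervals rest on the spread between these libraries, which may be technical, so they bound only differences between these libraries. The median standard error was 0.25. Because 0 genes passed, what follows describes levels and the genes whose groups did not overlap, that is those with both knockdown libraries above or both below the controls. There were 1583 such genes higher in the knockdown (13.6%) and 1653 lower (14.2%), with median log2 differences of 0.30 and -0.30. If the 4 libraries fell in random order, the groups would separate, in one direction or the other, for a share of 0.333 of genes. The shares seen did not reach this together, so a gap of this kind does not by itself mark a knockdown difference.

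**Figure D2:**
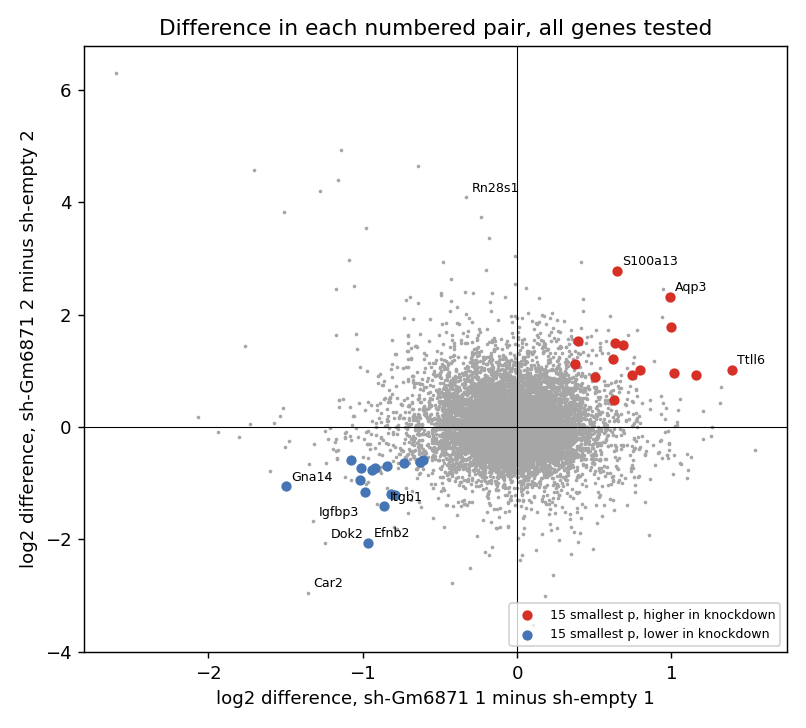
Log2 difference of each gene in the knockdown and control libraries numbered 1 (x axis) and in those numbered 2 (y axis), on the log2(RPKM + 0.5) scale; every point is a gene, and the coloured points are the 15 genes in each direction with the smallest p among those whose groups did not overlap. The cloud shows no tilt (r = -0.060), it is wider on the y axis, and Ttll6 is the sole gene above 1 on both axes.

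Among the genes higher in the knockdown, the leading one was Ttll6, an enzyme that adds glutamate chains to tubulin. Ttll6 stood at 3.35 and 3.88 RPKM with sh-empty and 9.61 and 8.35 RPKM with sh-Gm6871. The libraries of each group lay close together and the groups were far apart, with a log2 difference of 1.20 (SE 0.23). Npl, the lyase that breaks down sialic acid, stood at 12.99 and 10.7 RPKM with sh-empty and 22.1 and 20.7 RPKM with sh-Gm6871, a difference of 0.83 (SE 0.20). Cyp11a1, which cuts the side chain of cholesterol at the start of steroid synthesis, stood at 0.455 and 0.420 RPKM with sh-empty and 1.63 and 1.25 RPKM with sh-Gm6871 (log2 difference 1.04, SE 0.25). Its knockdown levels were clearly apart from the controls but remained low in absolute terms. Snord15b, a small nucleolar RNA, stood at 1.67 and 1.42 RPKM with sh-empty and 3.89 and 3.24 RPKM with sh-Gm6871 (0.99, SE 0.26). Tns1, a tensin that links integrins to actin, stood at 2.83 and 2.70 RPKM with sh-empty and 5.28 and 5.96 RPKM with sh-Gm6871 (0.90, SE 0.24). For each of these genes the gap between groups was wider than the gap inside either group. The selection, by smallest p among genes whose groups did not overlap, favoured such gaps, and limma's adjusted p was 0.997 for each. From here on the values in brackets after a gene's levels are its log2 difference, knockdown minus control, and the standard error of that difference from limma.

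Further genes of the same selection follow, ordered by known role, and no role was tested as a group. Aqp3, a channel for water and glycerol, stood at 13.2 and 13.5 RPKM with sh-empty and 26.7 and 69.0 RPKM with sh-Gm6871 (1.65, SE 0.44). The controls were nearly equal, and knockdown 2 was far above knockdown 1. Etnk1, the ethanolamine kinase of phospholipid synthesis, stood at 88.3 and 66.8 RPKM with sh-empty and 116 and 193 RPKM with sh-Gm6871 (0.96, SE 0.29). Pla1a, a phospholipase, stood at 3.65 and 2.47 RPKM with sh-empty and 5.90 and 6.37 RPKM with sh-Gm6871 (0.92, SE 0.27). Its knockdown libraries lay close together. Rhbdl2, a rhomboid protease that cuts within membranes, was low throughout, at 0.596 and 0.430 RPKM with sh-empty and 1.26 and 2.04 RPKM with sh-Gm6871 (1.07, SE 0.30). Abca1, the exporter of cellular cholesterol, stood at 8.36 and 11.4 RPKM with sh-empty and 14.1 and 36.6 RPKM with sh-Gm6871 (1.18, SE 0.46). In Abca1, Aqp3 and Etnk1 alike, the highest library was knockdown 2 and the other knockdown library was nearer to the controls.

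The remaining genes with the smallest p in this direction had mixed roles. Tnrc6a, the GW182 partner of Argonaute in silencing by small RNAs, stood at 22.4 and 23.7 RPKM with sh-empty and 34.9 and 33.4 RPKM with sh-Gm6871 (0.56, SE 0.16), with tight values in both groups. Ckb, the brain form of creatine kinase, stood at 168 and 124 RPKM with sh-empty and 218 and 271 RPKM with sh-Gm6871 (0.75, SE 0.21). S100a13, a small calcium-binding protein, stood at 17.1 and 8.03 RPKM with sh-empty and 27.1 and 58.0 RPKM with sh-Gm6871 (1.71, SE 0.48), and its controls differed from each other by more than 2 to 1. Syap1 stood at 16.3 and 14.3 RPKM with sh-empty and 23.4 and 26.9 RPKM with sh-Gm6871 (0.70, SE 0.19). By the selection, all 4 had both knockdown libraries above both controls. The entry NM_175692, which matched no symbol, stood at 6.73 and 5.44 RPKM with sh-empty and 10.7 and 16.1 RPKM with sh-Gm6871 (1.06, SE 0.28). NM_001100608, also without a symbol, stood at 0.211 and 0.187 RPKM with sh-empty and 0.917 and 1.84 RPKM with sh-Gm6871 (1.38, SE 0.32). Crym, which binds thyroid hormone, stood at 6.51 and 8.30 RPKM with sh-empty and 12.9 and 33.5 RPKM with sh-Gm6871 (1.44, SE 0.46). Vat1 stood at 71.1 and 34.1 RPKM with sh-empty and 83.5 and 139.7 RPKM with sh-Gm6871 (1.12, SE 0.41). Crym and Vat1 are named for the size of their difference at a mean of at least 10 RPKM, and both rested most on knockdown 2.

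The genes lower in the knockdown with the smallest p are given in the same way. Plekha3, which binds a phosphoinositide at the Golgi, stood at 16.4 and 17.6 RPKM with sh-empty and 8.07 and 7.62 RPKM with sh-Gm6871. The groups were wide apart, with a log2 difference of -1.07 (SE 0.19). Rpn2, a subunit of the complex that attaches N-linked sugars to new proteins, stood at 143 and 137 RPKM with sh-empty and 93.7 and 91.3 RPKM with sh-Gm6871 (-0.60, SE 0.14). Chmp3, of the ESCRT-III membrane scission machinery, stood at 55.0 and 54.6 RPKM with sh-empty and 35.5 and 35.0 RPKM with sh-Gm6871 (-0.63, SE 0.15). In Rpn2 and Chmp3 the libraries of a group lay close together. Borcs8, of the complex that positions lysosomes, stood at 26.7 and 30.8 RPKM with sh-empty and 13.7 and 18.0 RPKM with sh-Gm6871 (-0.85, SE 0.21). Cyb5b, a cytochrome b5 of the mitochondrial outer membrane, stood at 48.7 and 42.6 RPKM with sh-empty and 27.9 and 18.2 RPKM with sh-Gm6871 (-0.999, SE 0.25). Tmem101 stood at 24.3 and 19.2 RPKM with sh-empty and 11.3 and 12.7 RPKM with sh-Gm6871 (-0.83, SE 0.21).

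Itgb1, the beta 1 integrin through which ES cells bind matrix, stood at 73.7 and 67.4 RPKM with sh-empty and 40.3 and 25.1 RPKM with sh-Gm6871 (-1.13, SE 0.25). Efnb2, an ephrin ligand of Eph receptors, stood at 7.87 and 12.0 RPKM with sh-empty and 3.78 and 2.51 RPKM with sh-Gm6871 (-1.51, SE 0.32). Both control libraries of Itgb1 and of Efnb2 were well above both knockdown libraries. Gnai2, an inhibitory G protein alpha subunit, stood at 150.2 and 124 RPKM with sh-empty and 90.3 and 79.0 RPKM with sh-Gm6871 (-0.69, SE 0.17). Gna14, another alpha subunit, stood at 1.93 and 1.20 RPKM with sh-empty and 0.362 and 0.318 RPKM with sh-Gm6871 (-1.28, SE 0.29). Haus4, a subunit of the augmin complex that seeds microtubules in the spindle, stood at 44.5 and 44.5 RPKM with sh-empty and 25.01 and 19.14 RPKM with sh-Gm6871 (-1.01, SE 0.19). Rnaseh2c, a subunit of the nuclease that removes RNA from RNA-DNA hybrids, stood at 46.0 and 40.4 RPKM with sh-empty and 22.6 and 24.0 RPKM with sh-Gm6871 (-0.87, SE 0.17). The controls of Haus4 were all but identical, and those of Rnaseh2c differed by less than the gap between groups. Riok3, an atypical kinase, stood at 56.9 and 58.7 RPKM with sh-empty and 29.9 and 35.1 RPKM with sh-Gm6871 (-0.83, SE 0.16). Gpalpp1 stood at 27.9 and 28.7 RPKM with sh-empty and 15.3 and 17.5 RPKM with sh-Gm6871 (-0.77, SE 0.17). Eci2, an isomerase of fatty acid oxidation, stood at 1.17 and 1.01 RPKM with sh-empty and 0.326 and 0.282 RPKM with sh-Gm6871 (-0.98, SE 0.24) and has 2 RefSeq entries, so its level is uncertain.

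**Figure D3:**
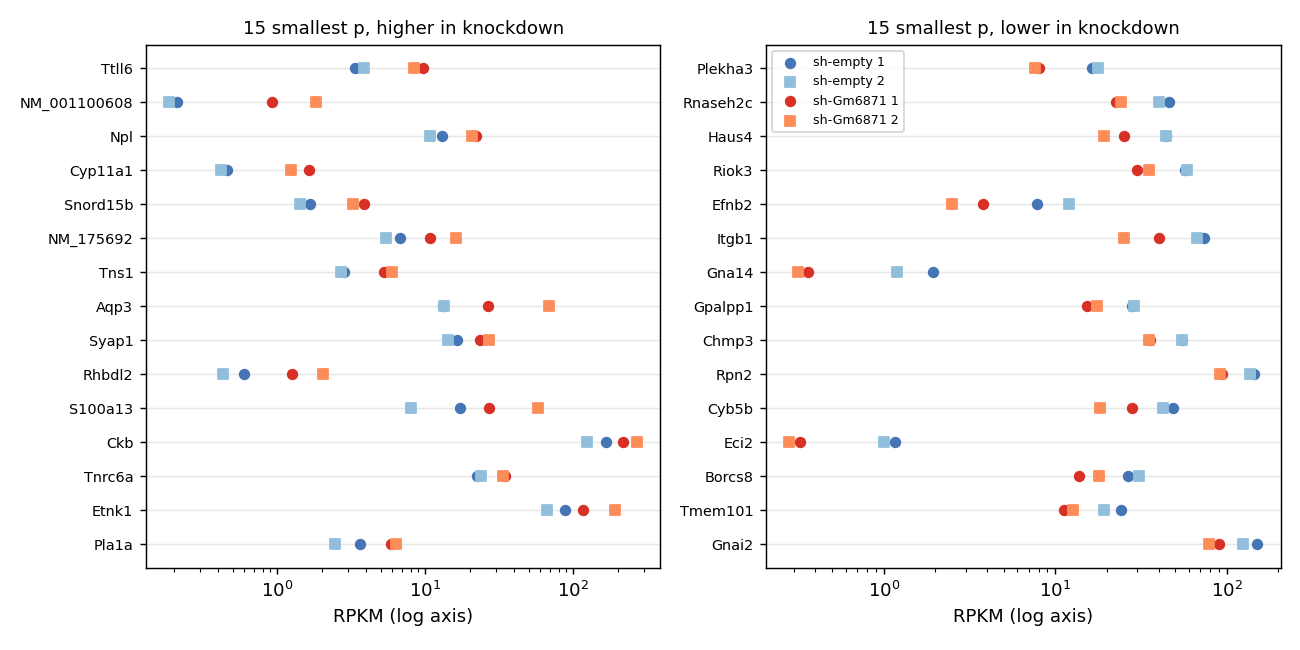
RPKM on a log axis of the 15 genes in each direction with the smallest p among genes whose groups did not overlap; circles are the libraries numbered 1, squares those numbered 2, blue the controls and red or orange the knockdown. In the right panel both knockdown libraries of Itgb1 (40.3 and 25.1 RPKM) lie left of both controls, and in the left panel the orange square of Aqp3 (69.0 RPKM) lies far from the red circle.

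The largest differences among well expressed genes rested on a single library more often. Car2, carbonic anhydrase 2, stood at 79.0 and 47.8 RPKM with sh-empty and 30.6 and 5.75 RPKM with sh-Gm6871, a log2 difference of -2.15 (SE 0.75). Knockdown 2 was the lowest by far, but both numbered differences were below -1. Gbx2, a homeobox gene of the LIF response, stood at 12.1 and 48.0 RPKM with sh-empty and 8.88 and 6.55 RPKM with sh-Gm6871 (-1.60, SE 0.63). The signalling ligand Bmp4 stood at 9.60 and 24.5 RPKM with sh-empty and 7.68 and 3.86 RPKM with sh-Gm6871 (-1.41, SE 0.52). In Gbx2 and Bmp4, control 2 stood apart from the other 3 libraries. Ccne1, the cyclin E1 of S phase entry, stood at 131 and 156 RPKM with sh-empty and 115 and 31.9 RPKM with sh-Gm6871 (-1.23, SE 0.58). Ddah1, which breaks down methylated arginine, stood at 36.6 and 51.5 RPKM with sh-empty and 31.6 and 10.6 RPKM with sh-Gm6871 (-1.22, SE 0.51). In Ccne1 and Ddah1 it was knockdown 2 that stood apart. The 4 genes below -1 in both numbered differences, looked at after their values were seen, were Car2, Gna14, Dok2 and Igfbp3. Dok2, a docking adaptor, stood at 14.5 and 9.79 RPKM with sh-empty and 5.82 and 1.96 RPKM with sh-Gm6871 (-1.65, SE 0.49). Igfbp3, which binds insulin-like growth factors, stood at 100.5 and 8.86 RPKM with sh-empty and 40.0 and 2.44 RPKM with sh-Gm6871, so its groups overlapped despite both differences, and without sh-empty 1 or sh-Gm6871 2 its log2 difference turned to 0.22 and 0.40.

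To see whether functions differed as groups, 50 lists holding 1194 genes were described by counts and medians, with 0 genes called in any of them. Over all tested genes 49.6% were above 0 and 50.4% below, and the median difference was -0.0026. Of 40 lists with at least 12 tested members, 20 had medians of the same sign in both numbered differences, and 19 kept their sign whichever library was left out. Of these 40, cholesterol synthesis, primed state and primitive endoderm genes lay lowest, and KRAB zinc finger genes, long noncoding RNAs and small nucleolar RNAs highest. For small nucleolar RNAs only 14 of 31 passed the level filter. Their median was 0.54 in the first numbered difference and -0.093 in the second, and -0.054 without sh-empty 1.

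**Figure D4:**
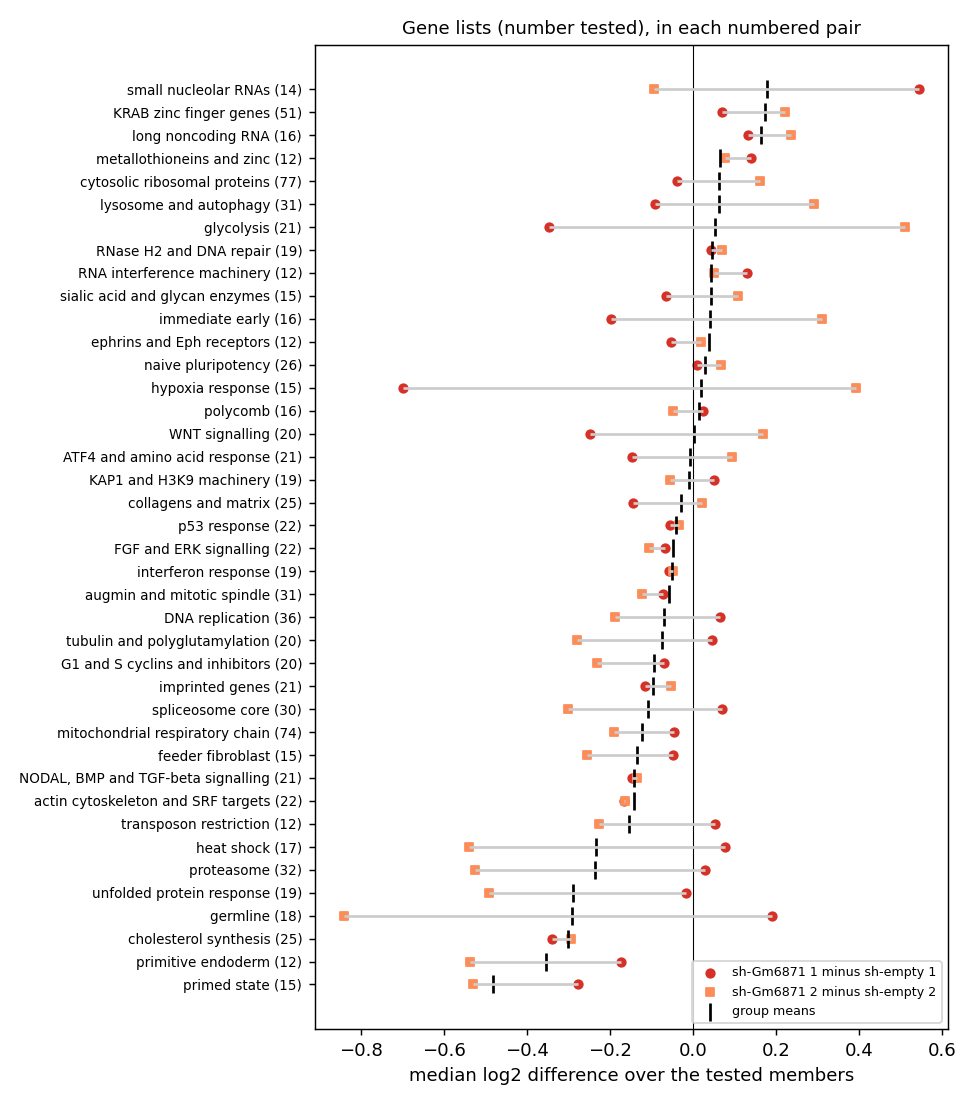
Median log2 difference (x axis) over the tested members of each list (number in brackets), for the libraries numbered 1 (circles), those numbered 2 (squares) and the group means (bars). For cholesterol synthesis the circle (-0.34) and square (-0.29) almost coincide, while for glycolysis (-0.35 and 0.51) and germline genes (0.19 and -0.84) they lie on opposite sides of 0.

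The cholesterol synthesis list lay lower by a similar amount in both numbered differences. Its enzymes build sterols from acetyl-CoA and are known to be driven by SREBP2 when sterols are scarce. Of 26 genes, 25 passed the level filter, 24 of these were below 0, and 13 had both knockdown libraries below both controls (background 14.2% of all genes), with 0 the other way. The median was -0.30, and it ranged from -0.42 to -0.13 when each library was left out. By numbered libraries 24 of 25 genes were below 0 in the first and 20 in the second, so the list did not rest on knockdown 2 alone. The single gene above 0 was Srebf1, and Hmgcs1, at 0.037 to 0.071 RPKM, was below the filter.

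Lss, the cyclase that makes lanosterol, stood at 27.6 and 27.5 RPKM with sh-empty and 19.4 and 18.99 RPKM with sh-Gm6871. The 2 controls were equal to within 1%, both knockdown libraries were lower, and the log2 difference was -0.51 (SE 0.16). Sqle, the squalene epoxidase just before it, stood at 55.6 and 54.4 RPKM with sh-empty and 43.5 and 32.3 RPKM with sh-Gm6871 (-0.55, SE 0.20). Cyp51, the demethylase just after it, stood at 29.9 and 23.1 RPKM with sh-empty and 20.9 and 18.7 RPKM with sh-Gm6871 (-0.40, SE 0.20). The first step of the pathway is served by Acat2, which stood at 65.3 and 60.4 RPKM with sh-empty and 50.4 and 46.0 RPKM with sh-Gm6871 (-0.38, SE 0.15). All 4 enzymes had non-overlapping groups. Stard4, a sterol carrier, stood at 13.7 and 9.90 RPKM with sh-empty and 8.38 and 6.67 RPKM with sh-Gm6871 (-0.61, SE 0.26). Srebf2, which encodes the regulator SREBP2, stood at 90.7 and 53.6 RPKM with sh-empty and 72.1 and 62.7 RPKM with sh-Gm6871 (-0.053, SE 0.27) with overlapping groups. Abca1, which removes cholesterol from cells, stood in the opposite direction, as given above. No gene of this list passed the limma test.

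Promoters of these genes were read from RefSeq (GRCm38.p6) as windows of 300 bases, from 250 before to 50 after the start. The letters searched, on both strands, were CCAAT for the CCAAT box, TCACNCCAC for the sterol regulatory element and, for the endoplasmic reticulum stress element, CCAAT and CCACG with 9 bases of any kind between them, which contains the CCAAT box. Of 22 windows of 17 cholesterol synthesis genes, 17 held CCAAT (77.3%), against 38.4% of the 10868 windows of tested genes and 37.4% of all 32851 windows. The share was 87.5% for unfolded protein response genes and 59.6% for KRAB zinc finger genes, a list that lay higher. The sterol element letters were in 0 of the 22, against 1.21% of the tested windows, which says only that these letters are not in these windows. The 16 members with CCAAT had a median log2 difference of -0.34, and 15 of them were below 0. In the lower direction 8 of them did not overlap (background 14.2%). Over the whole list 24 of 25 tested genes were below 0 and 13 did not overlap in that direction (52%). The 250 bases before the start of Lss (chr10:76531355-76531604, plus strand) and Cyp51 (chr5:4104698-4104947, minus strand) are shown because both enzymes were lower in both knockdown libraries; capitals mark CCAAT or its reverse complement, which begins at position -62 from the start in Lss and -29 in Cyp51.
Lss: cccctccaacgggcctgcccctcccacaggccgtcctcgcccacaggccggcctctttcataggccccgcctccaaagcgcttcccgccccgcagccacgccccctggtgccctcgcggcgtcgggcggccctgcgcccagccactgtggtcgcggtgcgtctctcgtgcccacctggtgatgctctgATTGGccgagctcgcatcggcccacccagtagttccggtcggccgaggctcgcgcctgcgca
Cyp51: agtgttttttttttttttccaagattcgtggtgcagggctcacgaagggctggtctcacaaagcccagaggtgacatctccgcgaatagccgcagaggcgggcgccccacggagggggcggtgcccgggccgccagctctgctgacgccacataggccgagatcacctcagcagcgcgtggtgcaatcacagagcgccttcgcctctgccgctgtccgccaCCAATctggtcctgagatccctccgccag

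The unfolded protein response list holds chaperones and sensors of the endoplasmic reticulum. Of 19 tested genes of 20, 15 were below 0, 7 had non-overlapping groups in the lower direction and 1 in the higher (backgrounds 14.2% and 13.6%), and the median was -0.29. The median was -0.016 between the libraries numbered 1 and -0.49 between those numbered 2, so most of the shift lay in the second. Dnajc3, a co-chaperone of the lumen, stood at 10.2 and 11.2 RPKM with sh-empty and 6.03 and 7.85 RPKM with sh-Gm6871 (-0.60, SE 0.23), with knockdown 1 the lowest. Sdf2l1 stood at 25.1 and 23.9 RPKM with sh-empty and 17.8 and 14.5 RPKM with sh-Gm6871 (-0.59, SE 0.19). The chaperone Hyou1 stood at 75.1 and 71.9 RPKM with sh-empty and 56.8 and 41.7 RPKM with sh-Gm6871 (-0.59, SE 0.20). Hspa5 (BiP), the main chaperone of the lumen, stood at 6.04 and 8.33 RPKM with sh-empty and 5.77 and 2.98 RPKM with sh-Gm6871 (-0.70, SE 0.36), and it has 2 RefSeq entries, so its level is uncertain. Hsp90b1 stood at 552 and 583 RPKM with sh-empty and 546 and 374 RPKM with sh-Gm6871 (-0.33, SE 0.22), where knockdown 1 lay beside the controls and only knockdown 2 was well below.

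**Figure D5:**
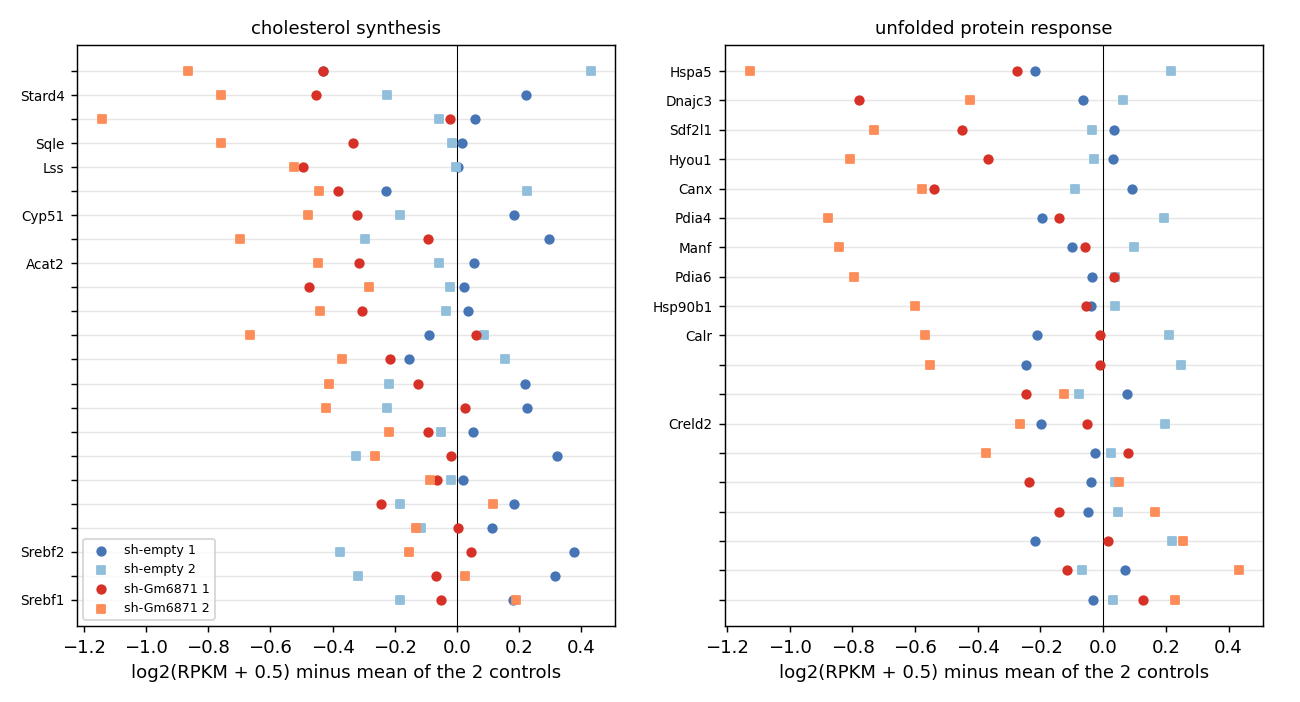
Log2(RPKM + 0.5) of 23 cholesterol synthesis and 19 unfolded protein response genes minus the mean of each gene's 2 controls (x axis) in the 4 libraries, left and right, with each row a gene, ordered by group difference, and the genes named in the text labelled. On the left most red circles and orange squares lie below 0 together, and on the right the orange squares of genes such as Hspa5, Pdia4 and Manf lie far below their red circles.

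The endoplasmic reticulum stress element was found in 7 of the 16 windows of unfolded protein response genes (43.8%), against 0.12% of tested windows. Its holders were Calr, Canx, Creld2, Dnajc3, Hsp90b1, Hspa5 and Pdia6, whose differences ranged from -0.70 to -0.16 with a median of -0.38. Of them, 4 had non-overlapping groups in the lower direction (background 14.2%), beside 7 of the 19 tested genes of the whole list (36.8%). The windows of Dnajc3 (chr14:118937682-118937931, plus strand) and Hsp90b1 (chr10:86705445-86705694, minus strand) show a single copy and a pair of the element, in capitals, in a gene with knockdown 1 well below the controls and in a gene with knockdown 1 next to them. The element begins at position -105 from the start in Dnajc3, and the first of 2 at -212 in Hsp90b1. A match of letters is a description and shows no binding.
Dnajc3: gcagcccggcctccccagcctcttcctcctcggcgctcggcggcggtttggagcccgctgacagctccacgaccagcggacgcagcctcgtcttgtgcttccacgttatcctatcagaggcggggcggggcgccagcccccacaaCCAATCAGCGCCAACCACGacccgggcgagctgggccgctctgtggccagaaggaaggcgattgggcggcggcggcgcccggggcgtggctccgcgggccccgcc
Hsp90b1: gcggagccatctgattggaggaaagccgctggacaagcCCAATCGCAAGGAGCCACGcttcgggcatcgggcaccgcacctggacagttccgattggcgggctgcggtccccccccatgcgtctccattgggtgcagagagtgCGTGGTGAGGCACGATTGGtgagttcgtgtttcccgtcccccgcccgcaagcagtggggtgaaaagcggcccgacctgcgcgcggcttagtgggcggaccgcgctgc

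Other parts of protein upkeep lay below 0 through the second knockdown library. All 32 proteasome genes, subunits of the protease that degrades ubiquitinated proteins, were tested and all 32 had negative differences, with a median of -0.24. Of these 7 had non-overlapping groups (21.9%, background 14.2%), and between the libraries numbered 1 the median was 0.029 with 12 of 32 below 0, against -0.53 with 32 of 32 in those numbered 2. Without a library in turn the median lay between -0.46 and -0.011. Psma1 stood at 269 and 268 RPKM with sh-empty and 229 and 178 RPKM with sh-Gm6871 (-0.41, SE 0.18). Psmd6 stood at 141 and 156 RPKM with sh-empty and 125 and 100.1 RPKM with sh-Gm6871 (-0.41, SE 0.18), and both were among the 7. The letters TGACNNNGC, the core of the antioxidant response element, were in 14.3% of 28 proteasome promoter windows and 14.4% of all tested ones. Of 17 heat shock genes 16 were below 0 with a median of -0.23, made of 0.077 in the first numbered difference and -0.54 in the second. The core of the spliceosome had 22 of 30 genes below 0 (median -0.11), with medians of 0.070 and -0.30 in the numbered differences and 0.020 without sh-Gm6871 2, and its ring protein Snrpb stood at 341 and 349 RPKM with sh-empty and 265 and 177 RPKM with sh-Gm6871 (-0.67, SE 0.23).

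Respiratory chain genes were lower by a small amount in both numbered differences. Of 74 tested, 61 were below 0, 23 had non-overlapping groups in the lower direction and 1 in the higher (backgrounds 14.2% and 13.6%), and the median was -0.12 (-0.046 in the first and -0.19 in the second). Ndufa12, of complex I, stood at 133 and 149 RPKM with sh-empty and 115 and 87.7 RPKM with sh-Gm6871 (-0.49, SE 0.19). Cox7a2, of complex IV, stood at 277 and 250.3 RPKM with sh-empty and 217 and 168 RPKM with sh-Gm6871 (-0.47, SE 0.18). In both, the 2 knockdown libraries were below the controls and knockdown 2 was the lowest. The entries of this list are short, with a median of 654 bases, and short entries as a whole lay lower: the median difference was -0.065 among entries of 61 to 1563 bases and 0.068 among those of 3856 to 23495 bases. The slope with length was in the libraries numbered 2 (-0.11 to 0.13) and not in those numbered 1 (-0.023 to -0.0050). Its part in the list's result was not tested.

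Pluripotency genes showed no common direction. Of 26 naive genes, 14 were above and 12 below 0, with a median of 0.029. Klf2, a naive state factor, stood at 42.8 and 40.2 RPKM with sh-empty and 53.2 and 90.1 RPKM with sh-Gm6871 (0.73, SE 0.27). Tcl1, a cofactor of AKT, stood at 51.9 and 33.1 RPKM with sh-empty and 56.1 and 112 RPKM with sh-Gm6871 (0.93, SE 0.38). Both were highest in knockdown 2. In the other direction Utf1 stood at 215 and 222 RPKM with sh-empty and 182 and 150.2 RPKM with sh-Gm6871 (-0.40, SE 0.16) and Nr0b1 (Dax1) at 82.2 and 119 RPKM with sh-empty and 82.1 and 67.1 RPKM with sh-Gm6871 (-0.41, SE 0.23). Utf1 was lower in both knockdown libraries, while knockdown 1 of Nr0b1 equalled control 1 to within 1%.

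Genes that mark the primed state and primitive endoderm lay lower. In bulk RNA, fewer cells of a type and less RNA per cell cannot be told apart. Of 15 tested primed genes 11 were below 0 and 6 had non-overlapping lower groups (background 14.2%), with a median of -0.48, but with a filter of 5 RPKM the median was 0.027, so the shift lay in weakly expressed members. In the first numbered difference 14 of 15 were below 0 (median -0.28), and in the second 9 were below and 6 above (median -0.53). Knockdown 1 minus knockdown 2 had a list median of 0.59, larger in size than the group difference. Dnmt3b, a de novo DNA methyltransferase, stood at 2.12 and 2.87 RPKM with sh-empty and 1.47 and 0.765 RPKM with sh-Gm6871 (-0.91, SE 0.33), in the highest of its 5 RefSeq entries, while 4 others were at 0. Foxd3, a transcription factor of pluripotent cells, stood at 14.4 and 17.6 RPKM with sh-empty and 12.8 and 8.53 RPKM with sh-Gm6871 (-0.59, SE 0.26). Lef1, a WNT effector, stood at 0.754 and 0.684 RPKM with sh-empty and 0.356 and 0.320 RPKM with sh-Gm6871 (-0.54, SE 0.24). Sfrp2, a secreted WNT modulator, stood at 1.95 and 2.97 RPKM with sh-empty and 1.56 and 1.31 RPKM with sh-Gm6871 (-0.60, SE 0.29). Each of the 4 was lowest in knockdown 2. Krt8, a keratin in the same list, stood at 199 and 15.6 RPKM with sh-empty and 181 and 35.6 RPKM with sh-Gm6871, so it followed the library number and not the hairpin. Of 12 tested primitive endoderm genes 12 were below 0, with 4 not overlapping (background 14.2%) and a median of -0.35. The 7 other listed genes were below the level filter, among them Sox17, Foxa2 and Pdgfra, and did not share a direction. Sox17 stood at 0.16 and 0.24 RPKM with sh-empty and 0.11 and 0.092 RPKM with sh-Gm6871. Hnf4a stood at 0.092 and 0.073 RPKM with sh-empty and 0.18 and 0.13 RPKM with sh-Gm6871. Sparc, a matrix protein, stood at 217 and 238 RPKM with sh-empty and 204 and 114 RPKM with sh-Gm6871 (-0.57, SE 0.29). Cubn, an endocytic receptor, stood at 0.936 and 1.61 RPKM with sh-empty and 0.672 and 0.339 RPKM with sh-Gm6871 (-0.81, SE 0.33). The summed level of the 19 primitive endoderm genes was 498 and 448 RPKM with sh-empty and 446 and 292 RPKM with sh-Gm6871, so knockdown 1 lay at the lower control. Sparc alone held a large part of each of these sums.

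Signalling and cell cycle lists were mixed, with a few members apart. Dusp6, a phosphatase induced by ERK signalling, stood at 39.5 and 62.6 RPKM with sh-empty and 34.4 and 21.6 RPKM with sh-Gm6871 (-0.86, SE 0.32), and its list had 15 of 22 genes below 0. Of BMP targets, Id1 stood at 27.9 and 63.9 RPKM with sh-empty and 28.7 and 16.6 RPKM with sh-Gm6871 (-0.94, SE 0.45) with overlapping groups, and the inhibitory Smad7 at 22.2 and 29.6 RPKM with sh-empty and 20.5 and 20.3 RPKM with sh-Gm6871 (-0.32, SE 0.20) without overlap, while the ligand Bmp4 was the lowest of its list. Of 31 mitotic spindle genes 22 were below 0 and 8 did not overlap in that direction (background 14.2%), with a median of -0.057. Besides Haus4, the activator Cdc20 stood at 204 and 245 RPKM with sh-empty and 176 and 139.6 RPKM with sh-Gm6871 (-0.51, SE 0.19). The kinase Plk1 stood at 115 and 105 RPKM with sh-empty and 88.7 and 76.3 RPKM with sh-Gm6871 (-0.42, SE 0.16). Cdkn2a, which encodes cell cycle inhibitors, stood at 3.44 and 5.79 RPKM with sh-empty and 2.20 and 1.55 RPKM with sh-Gm6871 (-1.08, SE 0.34) with 2 RefSeq entries. DNA replication genes, 36 tested, had 24 below 0 and a median of -0.071, but 24 were above 0 between the libraries numbered 1 (median 0.066) and 25 below 0 between those numbered 2 (-0.19), and without sh-Gm6871 2 the median turned to 0.054. The p53 response had 15 of 22 below 0 and a median of -0.041, which ranged from -0.12 to 0.096 when a library was left out. The ATF4 and amino acid response had 12 of 21 below 0, with 7 not overlapping in the lower direction and 2 in the higher (backgrounds 14.2% and 13.6%). It was 17 of 21 below 0 in the first numbered difference and 13 of 21 above 0 in the second, and its median ranged from -0.13 to 0.13 when a library was left out.

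Genes of the system to which Gm6871 belongs were examined next. Of 51 tested KRAB zinc finger genes (of 65 listed; Zfp91, a listed zinc finger gene, has no KRAB domain), 39 were above 0, 10 had non-overlapping higher groups and 1 lower, against backgrounds of 13.6% and 14.2%. Their median was 0.17, at 0.070 and 0.22 in the 2 numbered differences, and 0.0082 to 0.32 when a library was left out. Inside the groups, library 1 minus library 2, the list median was -0.23 for the controls and -0.25 for the knockdown, both larger in size. Zfp59 stood at 11.9 and 14.3 RPKM with sh-empty and 15.3 and 18.1 RPKM with sh-Gm6871 (0.34, SE 0.21). Zfp69 stood at 1.12 and 1.35 RPKM with sh-empty and 1.39 and 3.26 RPKM with sh-Gm6871 (0.63, SE 0.39). The 19 tested genes of KAP1 and H3K9 methylation had 10 below 0 and a median of -0.010. Trim28, which encodes KAP1, stood at 627 and 959.9 RPKM with sh-empty and 711 and 548 RPKM with sh-Gm6871 (-0.31, SE 0.27), with control 2 the highest, and the chromatin remodeller Atrx at 95.7 and 102 RPKM with sh-empty and 115 and 127 RPKM with sh-Gm6871 (0.29, SE 0.15), higher in both knockdown libraries.

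Of 12 tested genes of small RNA silencing, 7 were above 0, 4 had non-overlapping higher groups and 0 lower (backgrounds 13.6% and 14.2%). Besides Tnrc6a these included its relative Tnrc6c, at 12.0 and 10.1 RPKM with sh-empty and 14.5 and 18.3 RPKM with sh-Gm6871 (0.55, SE 0.22). The Argonaute gene Ago1 stood at 17.1 and 15.3 RPKM with sh-empty and 18.8 and 23.8 RPKM with sh-Gm6871 (0.37, SE 0.20). Defences against transposons and viruses did not share a direction. Of 12 tested restriction genes 8 were below 0, with Rnaseh2c the only one whose groups did not overlap, and of 19 interferon response genes 10 were below 0. B2m, the light chain of MHC class I, stood at 35.3 and 13.4 RPKM with sh-empty and 40.2 and 48.5 RPKM with sh-Gm6871 (1.00, SE 0.45), with control 2 far below the other libraries, and Ddx58, the RNA sensor RIG-I, at 19.5 and 30.9 RPKM with sh-empty and 18.7 and 12.0 RPKM with sh-Gm6871 (-0.70, SE 0.32). Among long noncoding RNAs 13 of 16 were above 0 with a median of 0.16. Snhg3 stood at 93.6 and 89.4 RPKM with sh-empty and 104 and 102 RPKM with sh-Gm6871 (0.17, SE 0.14). Snhg6 stood at 136 and 138 RPKM with sh-empty and 143 and 203 RPKM with sh-Gm6871 (0.31, SE 0.21), and both are hosts of small nucleolar RNAs.

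In some lists the 2 numbered differences went opposite ways, so the group mean hid them. Glycolysis genes were below 0 in 19 of 21 cases between the libraries numbered 1 (median -0.35) and in 4 of 21 between those numbered 2 (0.51), which left a median of 0.054. Slc2a1, the glucose transporter, was lower in both, at 327 and 224 RPKM with sh-empty and 183 and 181 RPKM with sh-Gm6871 (-0.57, SE 0.22). The hypoxia list had medians of -0.70 and 0.39. Bnip3, a mitophagy receptor induced by low oxygen, stood at 55.1 and 5.45 RPKM with sh-empty and 19.06 and 83.9 RPKM with sh-Gm6871, so the controls lay further apart than the group means. Germline genes had medians of 0.19 and -0.84. Tex19.1, a germ cell and placental gene that ES cells also express, stood at 49.5 and 68.9 RPKM with sh-empty and 53.8 and 14.6 RPKM with sh-Gm6871 (-1.04, SE 0.59), with only knockdown 2 apart. Stag3, a meiotic cohesin, stood at 6.83 and 4.89 RPKM with sh-empty and 7.95 and 7.74 RPKM with sh-Gm6871 (0.41, SE 0.25) and was higher in both. Cytosolic ribosomal protein genes had 58 of 77 members above 0 and a median of 0.062, made of 53 below 0 between the libraries numbered 1 (median -0.039) and 66 above 0 between those numbered 2 (0.16), and without sh-empty 2 the median was 0.00069. The lysosome list had 23 of 31 genes below 0 in the first difference and 8 of 31 in the second. Lamp2, of the lysosomal membrane, stood at 17.2 and 9.65 RPKM with sh-empty and 22.03 and 32.9 RPKM with sh-Gm6871 (1.03, SE 0.34) with 2 RefSeq entries.

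Tubulins, imprinted genes and histones held single members apart. Besides Ttll6, the tubulin list had Tubb3, at 9.30 and 12.7 RPKM with sh-empty and 14.8 and 15.5 RPKM with sh-Gm6871 (0.46, SE 0.23), in the same direction and Tubb4b, at 482 and 637 RPKM with sh-empty and 476 and 358 RPKM with sh-Gm6871 (-0.42, SE 0.23), in the other, and 6 of its 20 genes did not overlap in the higher direction against 3 in the lower (backgrounds 13.6% and 14.2%). Of 21 imprinted genes 14 were below 0, with a median of -0.096. Mcts2 stood at 57.4 and 58.4 RPKM with sh-empty and 45.4 and 39.1 RPKM with sh-Gm6871 (-0.45, SE 0.16). Zdbf2 stood at 28.8 and 31.2 RPKM with sh-empty and 35.6 and 39.7 RPKM with sh-Gm6871 (0.32, SE 0.16). H3f3b, which encodes the variant histone H3.3, stood at 430.2 and 467 RPKM with sh-empty and 366 and 299.9 RPKM with sh-Gm6871 (-0.44, SE 0.17), lower in both knockdown libraries.

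Structural RNAs varied widely between libraries. Rn28s1, the entry of 28S ribosomal RNA, stood at 263 and 66.2 RPKM with sh-empty and 209 and 1128 RPKM with sh-Gm6871. Rn5s, the 5S RNA, stood at 1.33 and 0.262 RPKM with sh-empty and 0.321 and 15.5 RPKM with sh-Gm6871. Rn7sk, the 7SK RNA that restrains transcription elongation, stood at 4.21 and 0.765 RPKM with sh-empty and 2.52 and 31.2 RPKM with sh-Gm6871. In all 3, knockdown 2 was the highest and control 2 was the lowest. The libraries were selected for polyadenylated RNA, and the part of this difference in the results above was not tested.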

How the data were processed

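RNA from 4 mouse ES cell libraries was measured, and the authors deposited RPKM values per RefSeq entry. The submitters' processing notes name Bowtie 0.12.5 with hg19 and mm9. The placing of reads with several positions, the annotation release and strand are not stated in the sources at hand. Of 36083 entries, 27888 matched a symbol, and the highest entry stood for its gene. Groups and columns were matched by sample titles. Genes with a mean of at least 0.5 RPKM were tested on log2(RPKM + 0.5) with limma 3.58.1 in R 4.3.3, with a variance trend, Benjamini-Hochberg adjustment and no replicate block. Reads recovered from the RPKM values were whole within 0.0001 for 100% of the entries kept and served for voom. The test was checked on simulated data. Named genes were, in each direction, the 15 with the smallest p among those not overlapping, the 5 with the largest difference at 10 RPKM or more, and up to 4 per list. The genes, lists and rules were chosen with earlier results of these data known. The authors' mean and fold columns, the peak lists and the human tables were not used. Some list members entered the counts and medians but are not reported here by name.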

Additional observations from a re-analysis of the deposited data

How the results depend on the processing

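In every setting tried, 0 genes passed limma's adjusted p of 0.05. Unadjusted calls ranged from 48 to 700 when a library was left out, where the lone sample is assumed to vary like the others. Genes with groups that did not overlap numbered 2996 higher and 2494 lower without the level filter and 928 higher (1171 lower) at 5 RPKM or more, because more or fewer genes were tested. Leaving out each library gave 2979 to 4279 higher and 2915 to 4247 lower, since fewer samples overlap less. Restricting to genes with 1 RefSeq entry, chosen after seeing the data, left 1392 higher and 1460 lower. Median centring put 46.5% of genes above 0, against 49.6%. With the replicate block, 0 genes were called and 372 had an unadjusted p under 0.05, against 223. The labels do not say whether a number marks a shared batch. The differences inside the 2 groups, library 1 minus library 2, correlated at r = 0.29 across genes, and the cause was not tested.

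Some named genes turned sign, and the cause was not tested. When each library was left out, the log2 difference ranged from -3.39 to 0.40 for Igfbp3 (0.22 without sh-empty 1 and 0.40 without sh-Gm6871 2), from -0.45 to 2.77 for Bnip3, from -1.30 to 2.33 for Krt8 (-0.65 without sh-Gm6871 1), from -0.43 to 0.32 for Srebf2 (0.047 without sh-Gm6871 2), from -0.079 to 0.13 for Nanog, from -1.63 to 1.82 for Col1a1 (-1.60 without sh-Gm6871 1), from -0.12 to 0.20 for Sox2 and from -0.52 to 3.76 for Rn5s. With quantile normalization Srebf2 was at 0.013. The 1537 other values of single genes kept their direction. Of the list medians under other settings, 80 moved by more than the spread between replicates and 718 did not.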

Other observations

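Families of genes that share the start of their symbol were looked at after the values were seen, among those with at least 15 tested members. All 15 Timm genes, which import proteins into the inner mitochondrial membrane, were below 0, 7 of them with both knockdown libraries under both controls (background 14.2%), and their median log2 difference was -0.26. It was -0.058 between the libraries numbered 1 and -0.55 between those numbered 2. The mitochondrial ribosome followed, with 29 of 29 Mrps genes and 47 of 49 Mrpl genes below 0, at medians of -0.17 each. Their medians between the libraries numbered 1 were 0.021 and -0.0025, so these families rested on the second numbered difference. Of 27 Polr genes, subunits of RNA polymerases, 24 were below 0, with a median of -0.15. That median was 0.063 between the libraries numbered 1 and -0.37 between those numbered 2.

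In the other direction, 20 of 25 Fbxo genes, which pick substrates for ubiquitin ligases, were above 0, with 13 not overlapping in that direction and 4 in the lower (backgrounds 13.6% and 14.2%) and a median of 0.17. Of 36 Cep genes, of the centrosome, 26 were above 0 (median 0.10), and of 290 Zfp genes 188 were above 0 (median 0.083). The Cep median was -0.013 between the libraries numbered 1 and 0.20 between those numbered 2, and the Zfp medians were 0.056 and 0.11. By kind of transcript, the 229 tested long noncoding RNAs had a median of 0.13 and the 10762 protein-coding genes one of -0.0092. These families were chosen for their values and carry no test, and short entries lay lower in the libraries numbered 2.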
